A study of Mus musculus with 6 samples.

Results

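Less mature natural killer (NK) cells of the small intestinal lamina propria were described across 2 single-cell libraries, one from wild-type mice (WT_LP) and one from mice labelled zfp683 flox/flox; Ncr1-Cre (KO_LP). A cell was taken as a member when its Eomes, Klra4, Klra8 and Klra9 unique molecular identifiers (UMIs, each standing for 1 captured RNA molecule) summed to at least 2. It also had to hold fewer than 2 UMIs of S1pr5, Cma1 and Serpinb9b together, fewer than 2 of Cd3e and Cd3d together and fewer than 50 of Jchain. Cells with under 500 genes, under 1000 UMIs or over 10% mitochondrial UMIs were not considered. The rule found 661 members among 8577 such cells. They were 377 of 5122 cells in WT_LP (7.36%, exact 95% interval 6.66 to 8.11) and 284 of 3455 in KO_LP (8.22%, 7.33 to 9.19). The difference, KO_LP minus WT_LP, of 0.860 percentage points had an interval of -0.308 to 2.05, so it was not detectable at this depth.

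The study concerns Hobit, a transcription factor encoded by Zfp683, in type 1 innate lymphoid cells of 3 tissues (liver, salivary gland and gut), with 1 library for each tissue and genotype. Both groups used here were C57BL/6J mice of 8 weeks. The wild-type group carries no allele named in the labels. In the other group Cre is driven by Ncr1, the gene of the receptor NKp46, so deletion is directed to cells that express Ncr1, and no library of floxed mice without Cre was analysed here. Lymphocytes were freed from the gut wall, without Peyer's patches, by EDTA and collagenase IV and enriched on Percoll. The labels give neither the number of animals in a library nor a sort gate. Where a pair of values is given without its libraries, WT_LP comes first. With 1 library a genotype there is no replicate check, no test was possible between genotypes, and every interval below is a 95% interval of counting error only.

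NK cells are cytotoxic lymphocytes that kill stressed or infected cells with perforin and granzymes and release interferon gamma and chemokines. Their development depends on the T-box factors Eomes and T-bet. As they mature they gain receptors and adhesion molecules of circulating cells, such as S1PR5, CD11b and KLRG1, and lose marks of their precursors, such as KIT. The Ly49 receptors, encoded by the Klra genes, recognise MHC class I molecules, and most Ly49 receptors inhibit the cell. Each NK cell switches on its own subset of Klra genes. ILC1, the tissue-resident relatives of NK cells, generally lack Eomes and carry CXCR6, CD49a and the interleukin 7 receptor.

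The members held 2681922 UMIs in WT_LP and 2240903 in KO_LP, with a median of 6575 and 7094.5 UMIs a cell and 2014 and 2120 genes. The median over all kept cells was 4950 and 5418 UMIs, so the members were deeper than the average cell in both libraries. The rule asks for at least 2 raw UMIs of Eomes, Klra4, Klra8 and Klra9 together, so it favours deeper cells. The libraries shared 5 cell barcodes and no member had a barcode found in the other. Zfp683 was at 2 UMIs over the members of WT_LP and 1 in KO_LP. In all kept cells that were not members, which take in both comparison groups used below, it stood at 2.95 CPM (the UMIs of a gene scaled to a common total of 1e+06 summed UMIs) and 3.81 CPM. The labels do not name the deleted exons, and a count of 3′ ends need not fall on them, so Zfp683 gives no check of the genotype labels.

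The genes Gzma and Ctla2a, which the rule did not use, are given as a description. They were listed as NK markers with earlier results of these data known, so they do not check the label. Gzma, encoding granzyme A, had a UMI in 71.4% of members of WT_LP and 83.1% of KO_LP. The share was 100% and 98.2% in the mature NK cells defined below. It was 40.3% and 44.5% in cells with NKp46 or NK1.1 but without the rule genes. Ctla2a, which encodes a cysteine protease inhibitor related to a cathepsin propeptide, stood at 680 CPM in members of WT_LP and 645 CPM in KO_LP. That was 2.06 and 2.22 higher on the log2 scale than in cells with NKp46 or NK1.1 but without the rule genes. Free RNA was gauged in plasma cells, which should lack the rule genes. At a median of 23855 and 23045 UMIs, 1 of 97 plasma cells (1.03%) and 1 of 109 (0.917%) had at least 2 UMIs of the rule genes. Among cells with at least 2 UMIs of Cd3e and Cd3d, the share was 14.1% in WT_LP and 17.2% in KO_LP. Among all cells under the Cd3 and Jchain limits it was 9.995% and 12.8%. The rule genes were thus no rarer in the Cd3 cells, and T cells or mixed barcodes with these genes lie next to the members.

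The 4 genes that chose the members are given as a description. Eomes, the T-box factor of NK cells (GRCm38 chromosome 9, 118478212 to 118486132, plus strand), held 578 UMIs in WT_LP and 539 in KO_LP, or 216 and 241 CPM. Klra4, the gene of Ly49D, an activating receptor, stood at 454 and 511 CPM. Klra8, the gene of Ly49H, the activating receptor for a protein of mouse cytomegalovirus, stood at 419 and 469 CPM. Klra9, the gene of Ly49I, an inhibitory receptor, stood at 280 and 245 CPM. The log2 ratios of KO_LP over WT_LP were 0.17 for Klra4, 0.16 for Klra8 and -0.19 for Klra9.

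The Klra genes lie side by side on the minus strand of chromosome 6, and the bases just upstream of the 3 used by the rule are shown because they show how closely these genes resemble each other. Each stretch is from the RefSeq promoter table (GRCm38.p6), 120 bases long and written 5′ to 3′ on the minus strand. Klra4 is shown at chr6:130067297-130067416, Klra8 at chr6:130129925-130130044 and Klra9 at chr6:130193113-130193232. The capitals mark a run of 17 bases that all 3 share.
Klra4: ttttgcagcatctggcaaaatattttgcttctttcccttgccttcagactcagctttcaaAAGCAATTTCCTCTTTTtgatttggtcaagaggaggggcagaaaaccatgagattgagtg
Klra8: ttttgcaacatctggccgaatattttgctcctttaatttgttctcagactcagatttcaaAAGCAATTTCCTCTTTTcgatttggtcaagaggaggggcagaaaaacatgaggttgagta
Klra9: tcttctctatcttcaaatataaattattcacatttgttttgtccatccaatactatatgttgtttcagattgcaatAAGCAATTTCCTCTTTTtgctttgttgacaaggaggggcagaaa

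The run AAGCAATTTCCTCTTTT was present in 8 of 32851 promoter windows (0.0244%), among them those of Klra3, Klra6 and Klra17, so 6 of 11 Ly49 genes searched held it. Anchored at the run and without gaps, Klra4 and Klra8 had 212 of 249 upstream bases in common (85.1%), whereas Klra4 and Klra9 had 81 of 209 (38.8%) and Klra8 and Klra9 had 75 of 208 (36.1%). Short factor motifs were searched on both strands of the 250 bases upstream. GGTGTGA, the core of a T-box site, was in 3.33% of all windows and in none of the 11 Ly49 genes. GAAAGTG, a core of the Blimp1 type, was in 4.01% of all windows and also in none of them. TGTGGT, a RUNX core, was in 14.05% of windows and only in Klra1 of the Ly49 genes, and CTTTGAT, a TCF core, in 3.21% and only in Klra6. These are matches of letters and no sites. The transcript ends also resemble each other. Of all 50-base stretches in the last 500 bases, 4.66% in Klra4, 13.1% in Klra8 and 49.4% in Klra9 also occur in another Klra gene, so reads may have been split between them, most of all for Klra9. For Klra7 and Klra1, which the rule did not use, the share was 22.1% and 6.96%.

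Most members carried Eomes together with a rule Ly49 gene. This class made up 213 of 377 members in WT_LP (56.5%) and 171 of 284 in KO_LP (60.2%). Members with Ly49 UMIs and no Eomes UMI numbered 128 (34.0%) and 81 (28.5%), and members with Eomes alone 36 (9.55%) and 32 (11.3%). Klra4 was found in 47.2% and 50.4% of members, Klra8 in 48.3% and 52.8%, and Klra9 in 49.3% and 47.2%. All 3 were found together in 11.1% of members in WT_LP and 12.7% in KO_LP. Over 8 Ly49 genes (Klra1 and Klra3 to Klra9), the most common number in a cell was 3 in WT_LP (31.0% of members) and 2 in KO_LP (30.3%). Klra4, Klra8 and Klra9 are among these genes and chose the members, so the rule sets these numbers in part.

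**Figure D1:**
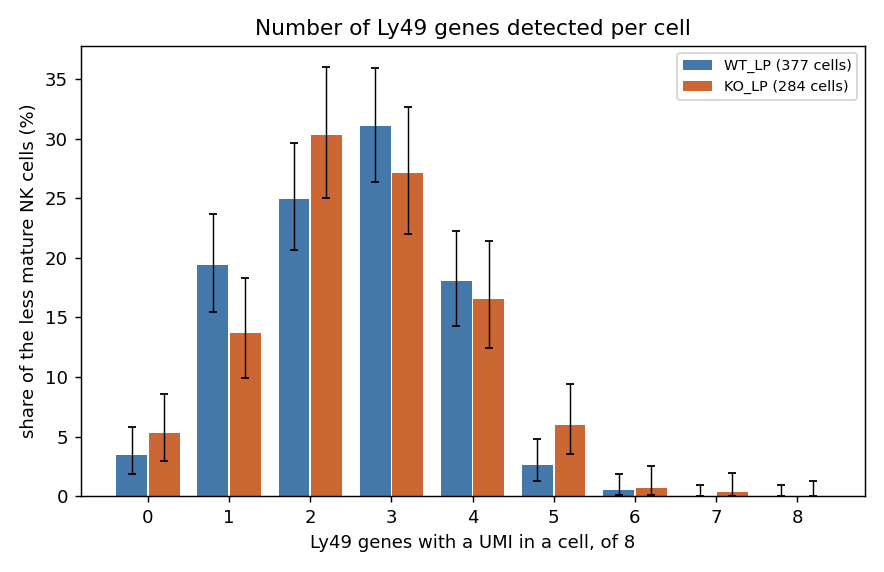
Share of the less mature NK cells (vertical axis, percent) by the number of 8 Ly49 genes with a UMI in the cell (horizontal axis), for WT_LP (377 cells) and KO_LP (284 cells), with exact 95% binomial intervals. Most cells of both libraries have between 1 and 4 of the genes, with the peak at 3 genes in WT_LP (31.0%) and at 2 in KO_LP (30.3%), and the intervals of the bars overlap at each number. Klra4, Klra8 and Klra9 are among the genes counted and chose the members, so the rule sets these numbers in part.

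The classes differed in genes the rule did not use. Il7r, the interleukin 7 receptor chain found on precursors and innate lymphoid cells, stood at 102 and 82.1 CPM in members with Ly49 alone. In members with both Eomes and Ly49 it stood at 47.3 and 20.3 CPM. Cxcr6, a chemokine receptor of tissue-resident lymphocytes, stood at 51.1 and 44.98 CPM in members with Ly49 alone. In members with both it was at 16.2 CPM in WT_LP and without a UMI in KO_LP. Both genes were thus higher in the Ly49 members without an Eomes UMI than in those with one. Gzma stood at 2636 and 3730 CPM with Eomes alone and 4005 and 5169 CPM with Ly49 alone.

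Cells near the limits of the rule show what it cuts through. Cells with 1 UMI of the rule genes, just outside, numbered 163 in WT_LP and 76 in KO_LP, and cells with 2, just inside, numbered 57 and 34. Il7r stood at 566 and 263 CPM just outside, 119 and 211 CPM just inside, and 50.5 and 8.27 CPM in members with at least 5 UMIs. Klra7, the gene of Ly49G, an inhibitory receptor that the rule did not use, stood at 102 and 246 CPM just outside, 339 and 233 CPM just inside, and 499 and 463 CPM from 5 UMIs on. Il7r was thus lower in cells with more rule UMIs in both libraries, while the step in Klra7 at the limit was seen in WT_LP and not in KO_LP. At the upper limit, Gzma stood at 7516 and 6277 CPM in members with 1 UMI of S1pr5, Cma1 and Serpinb9b (28 and 39 cells). It stood at 12224 and 6260 CPM in cells with 2 such UMIs, just outside (14 and 19 cells).

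The members were set beside mature NK cells of the same libraries, defined by at least 2 UMIs of S1pr5, Cma1 and Serpinb9b under the same Cd3 and Jchain limits (48 cells in WT_LP and 56 in KO_LP). These ratios describe cells chosen by the same counts, and no test was made. Of 2516 genes with enough UMIs, 62 (2.46%) were higher and 106 (4.21%) lower in members by more than 1.5-fold in both libraries. Of the 18 genes of the mature NK list that were measured, 16 were lower in members and 1 was higher.

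Prf1, the gene of the pore-forming protein perforin, stood at 256 CPM in members and 1272 CPM in mature NK cells of WT_LP, and at 310 and 996 CPM in KO_LP. Gzma stood at 3391 against 14790 CPM and at 4051.5 against 10262 CPM, and Gzmb, the gene of granzyme B, at 565 against 2622 and 742 against 2017 CPM. Both granzymes and perforin were thus lower in the members of each library. Among markers of mature cells, Klrg1, an inhibitory receptor, had log2 ratios of members over mature NK cells of -3.47 and -2.17, and Ly6c2, the gene of a Ly6C surface protein, -2.79 and -3.69. Itgam, the CD11b chain, had log2 ratios of -1.82 and -1.89. Itga2, the CD49b chain, had -1.74 and -1.94, and Zeb2, a transcription factor of terminal NK maturation, -2.28 and -1.48. Klf2, a transcription factor that maintains S1P receptors, stood at 179 against 622 CPM in WT_LP and 261 against 697 CPM in KO_LP. Entpd1, encoding the ectonucleotidase CD39, had ratios of -2.20 and -2.04.

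Higher in the members than in mature NK cells were Ltb, the gene of lymphotoxin beta, at 246 against 53.3 CPM in WT_LP and 186 against 27.6 CPM in KO_LP, and Cd160, an NK receptor gene, at 415 against 131 and 302 against 97.8 CPM. Cd7, an early lymphoid surface protein, stood at 535 against 178 and 486 against 201 CPM. Xcl1, a chemokine that draws cross-presenting dendritic cells, stood at 4239 against 2395 and 3848 against 1834 CPM. Of the less mature NK list, 7 of 15 measured genes were higher and 1 was lower. Kit, the stem cell factor receptor, stood at 204 against 24.9 CPM in WT_LP and 107 against 55.2 CPM in KO_LP, and Tcf7, the gene of the Wnt pathway factor TCF1, at 122 against 49.7 and 148 against 80.3 CPM. Klra7 did not separate the groups, with log2 ratios of -0.06 and 0.16, nor did Klrd1, the gene of CD94, with -0.02 and 0.02.

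A further comparison was with cells that held at least 2 UMIs of Ncr1 or Klrb1c, none of the 4 rule genes, and no UMI of a short set of ILC3 genes such as Il22, Il23r, Tmem176a and Tmem176b (258 and 200 cells). Of 2630 genes, 85 (3.23%) were higher and 260 (9.89%) lower in the members by more than 1.5-fold in both libraries. Klra7 stood at 469 CPM in members and 38.2 CPM in these cells of WT_LP, and at 455 and 46.9 CPM in KO_LP. Klra1, the gene of Ly49A, stood at 121 against 6.64 and 117 against 13.4 CPM, so both Ly49 genes outside the rule were higher in the cells that the rule chose. Their transcript ends share stretches with other Klra genes, so their counts may not be fully separate from those of the rule genes. Sh2d1a, the gene of the signalling adaptor SAP, and Itga4, the alpha 4 integrin, were also higher, by 2.31 and 2.05 and by 1.52 and 1.58 on the log2 scale. Gzma stood at 3391 against 1363 CPM and at 4051.5 against 1191 CPM.

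Lower in the members than in these cells were genes of resident innate lymphoid cells, with 5 of 7 measured ILC1 markers past 1.5-fold. Il7r stood at 64.1 CPM in members and 379 CPM outside in WT_LP, and at 38.8 and 453 CPM in KO_LP. Rora, a nuclear receptor needed by innate lymphoid cells, stood at 87.3 against 518 and 53.6 against 612 CPM. Cxcr6 stood at 25.4 against 232 CPM and at 12.9 against 164 CPM. Ccr9, the gut-homing chemokine receptor, stood at 9.69 against 89.6 and 5.80 against 192 CPM, and Ikzf2, the gene of the factor Helios, at 159 against 768 and 112 against 677 CPM. Ltb, Cd160 and Kit, which were higher in members than in mature NK cells, were higher still in these cells. They stood here at 406 and 408, 581 and 550, and 232 and 208 CPM. Cd7 stood lower here than in members, at 305 and 476 CPM, and Xcl1 and Tcf7 differed in direction between the libraries. Of the tissue retention list 5 of 11 measured genes were lower in members, and of the egress list 4 of 7 were higher. The members thus lay between both other groups in Gzma, Gzmb, Prf1, Klf2 and Itgam in each library, as the plot of levels by group shows.

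**Figure D2:**
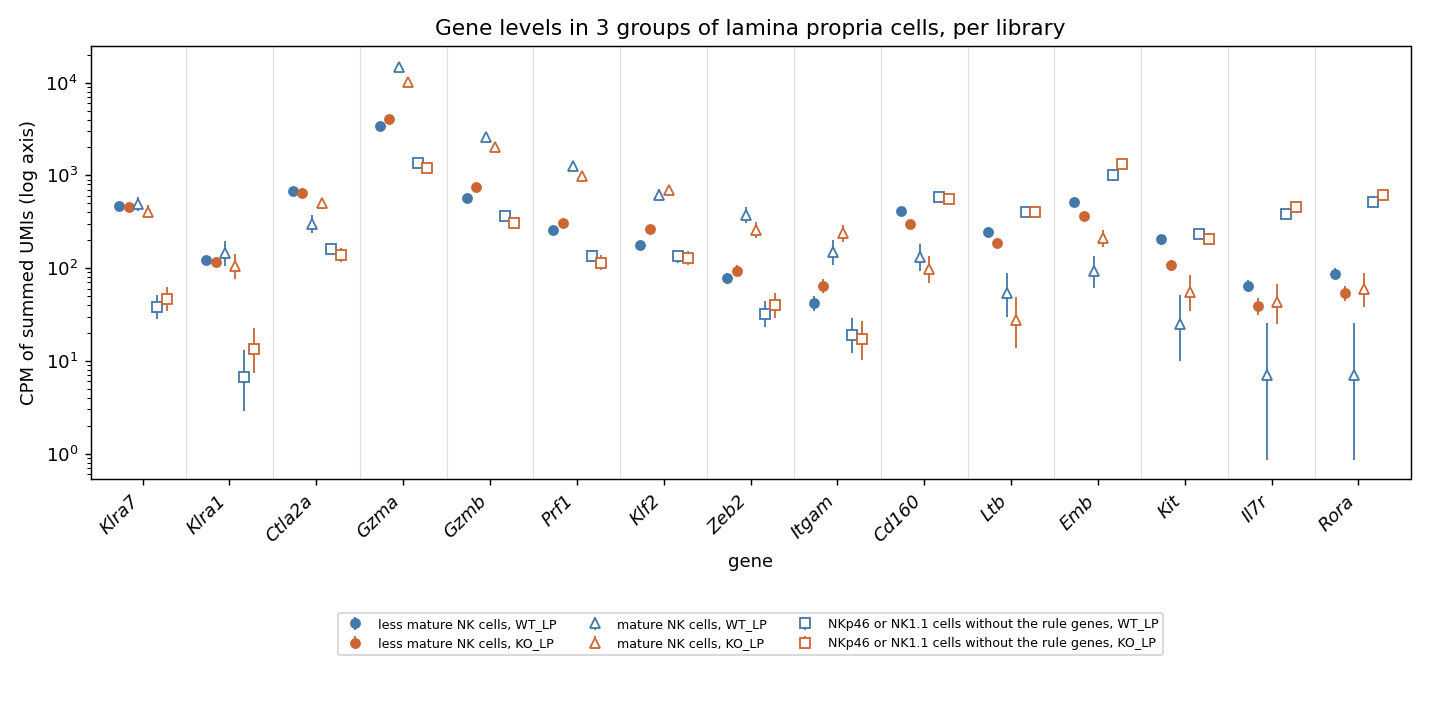
CPM of summed UMIs (vertical log axis) for 15 genes (horizontal axis) in the less mature NK cells, mature NK cells and cells with NKp46 or NK1.1 but none of the rule genes, with blue for WT_LP, orange for KO_LP and bars for exact Poisson 95% intervals. Gzma in the members (3391 and 4051.5 CPM) lies between mature NK cells (14790 and 10262 CPM) and the other cells (1363 and 1191 CPM), and Klra7 is near its mature level.

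Between genotypes, few genes differed much in summed level in the members. Of 2544 genes with at least 30 UMIs over both libraries and at least 50 CPM in one of them, 50 (1.97%) were past 1.5-fold, 22 (0.865%) higher in KO_LP and 28 (1.1%) lower. The median log2 ratio of KO_LP over WT_LP was -0.0016, and 95% of the genes lay between -0.44 and 0.47. The counting interval lay above 0 for 11.6% of the genes and below 0 for 10.2%. The same contrast put 23.8% of the genes past 1.5-fold in mature NK cells and 5.54% in the NKp46 or NK1.1 cells, from fewer UMIs. Lower in KO_LP were Csf2, Kit, Ncr1, Jaml and Ly6c2 among others, and higher were cell cycle genes, Hsph1 and Itgam.

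**Figure D3:**
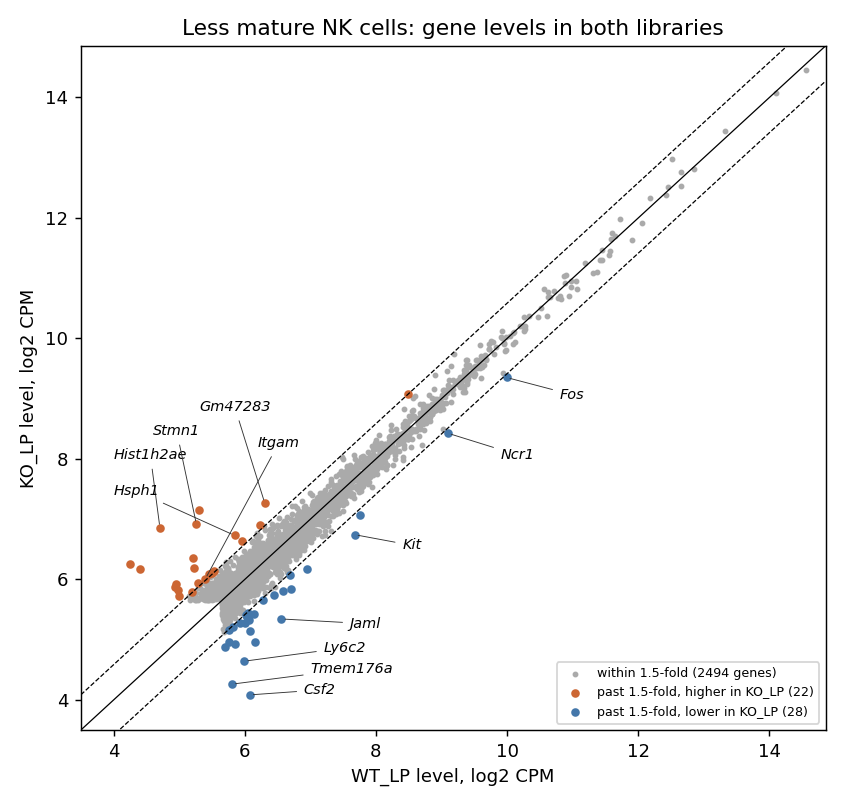
Log2 CPM in the less mature NK cells of WT_LP (horizontal axis) against KO_LP (vertical axis) for 2544 genes, each dot 1 gene, with the solid line for equal levels and dashed lines for 1.5-fold. Most genes lie between the dashed lines, with 22 above (orange) and 28 below (blue), of which Ncr1 and Fos are at the highest levels among those named.

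Ncr1, which encodes NKp46, an activating receptor of NK cells and some innate lymphoid cells, held 1468 UMIs in WT_LP and 771 in KO_LP, or 547 and 344 CPM (log2 ratio -0.67, interval -0.80 to -0.54). A UMI of it was found in 339 of 377 and 229 of 284 members. After each member was thinned to 2500 UMIs, which left out 25 and 14 shallower members, 69.3% of WT_LP and 52.2% of KO_LP had an Ncr1 UMI. The difference was thus present at equal depth. It was not particular to the members, since Ncr1 also stood at 718 and 399 CPM in mature NK cells. In all kept cells that were not members, both comparison groups included, it stood at 471 and 239 CPM. In the NKp46 or NK1.1 cells it stood at 737 and 388 CPM, but Ncr1 UMIs helped to choose those cells. Ncr1 also names the Cre of KO_LP, and the labels do not say whether that allele alters Ncr1 itself.

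Other receptors differed less. Cd160 stood at 415 and 302 CPM (log2 ratio -0.46), and Tyrobp, the gene of the adaptor DAP12 that activating Ly49 receptors need, at 1961 and 1670 CPM (-0.23). Fcer1g, an adaptor that NKp46 and the Fc receptor use, had a ratio of -0.18. Over the list of other NK receptors and adaptors, 8 of 25 genes were higher and 17 lower in KO_LP, where 49.6% of all genes tested had the higher CPM, with a median of -0.08, and 2 intervals lay above 0 and 5 below. Klrb1c, the gene of NK1.1, stood at 436 and 465 CPM and Klrd1 at 1007 and 893 CPM.

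Of 10 Ly49 genes listed beyond those of the rule, 8 matched a gene name in the files and 5 had at least 10 UMIs. Klra7 stood at 469 and 455 CPM and Klra1 at 121 and 117 CPM, each with an interval that spanned 0. Klra3, the gene of the inhibitory receptor Ly49C, stood at 92.1 and 130 CPM (log2 ratio 0.50, interval 0.25 to 0.75). Of its 50-base stretches at the transcript end 31.5% occur in another Klra gene, so this value is uncertain. Klra5 held 49 UMIs in 8 cells of WT_LP and 6 UMIs in 4 cells of KO_LP.

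Among the effector genes, the granzymes and perforin were at higher levels in KO_LP and several cytokine genes at lower. Gzma held 9094 UMIs in WT_LP and 9079 in KO_LP, which is 3391 and 4051.5 CPM (log2 ratio 0.26, interval 0.21 to 0.30). Its median per cell was 10.9 UMIs per 10000 in WT_LP and 22.5 in KO_LP, and 108 and 48 members had none. At 2500 UMIs a cell, 64.5% and 77.4% had a Gzma UMI, against 35.0% and 37.97% of the NKp46 or NK1.1 cells. Gzma was thus found in more members of KO_LP, while the highest cell was in WT_LP (347 against 228 UMIs per 10000). Gzmb stood at 565 and 742 CPM (0.39, 0.29 to 0.49) and had a UMI in 31.5% and 45.9% of thinned members. Prf1 stood at 256 and 310 CPM (0.28). None of these was past 1.5-fold, and over all 23 granule genes the median was -0.05, with 9 higher and 14 lower. In both other groups Gzma and Gzmb were at lower levels in KO_LP than in WT_LP. The NKp46 or NK1.1 cells were chosen partly by Ncr1, which stood lower in KO_LP, so they need not be like cells in both libraries.

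Csf2, the gene of the growth factor GM-CSF, had the ratio farthest from 0 among the 28 tested genes past 1.5-fold and lower in KO_LP. It held 181 UMIs in 36 cells of WT_LP and 38 UMIs in 18 cells of KO_LP, or 67.5 and 16.96 CPM (-1.99, interval -2.54 to -1.48). A single cell of WT_LP held 55 of the UMIs (30.4%), and without the top cell of each library the ratio was -1.76. Csf2 was not detected in most members, with no UMI in 341 and 266 of them. Csf2 stood at 110 and 18.2 CPM in the NKp46 or NK1.1 cells and at 112 and 45.3 CPM in all kept cells that were not members. In mature NK cells it held 1 and 7 UMIs, with an interval that spanned 0. Tnf, encoding tumour necrosis factor, stood at 49.96 and 29.5 CPM (-0.76), and Ltb at 246 and 186 CPM (-0.41). Ifng, the gene of interferon gamma, stood at 557 and 578 CPM with an interval that spanned 0. Of the chemokine genes, Ccl4 stood at 4644 and 5143 CPM (0.15), Ccl5 at 5586 and 5839 CPM and Xcl1 at 4239 and 3848 CPM. The cytokine and chemokine list had a median of -0.12, with 6 of 16 measured genes higher and 10 lower.

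**Figure D4:**
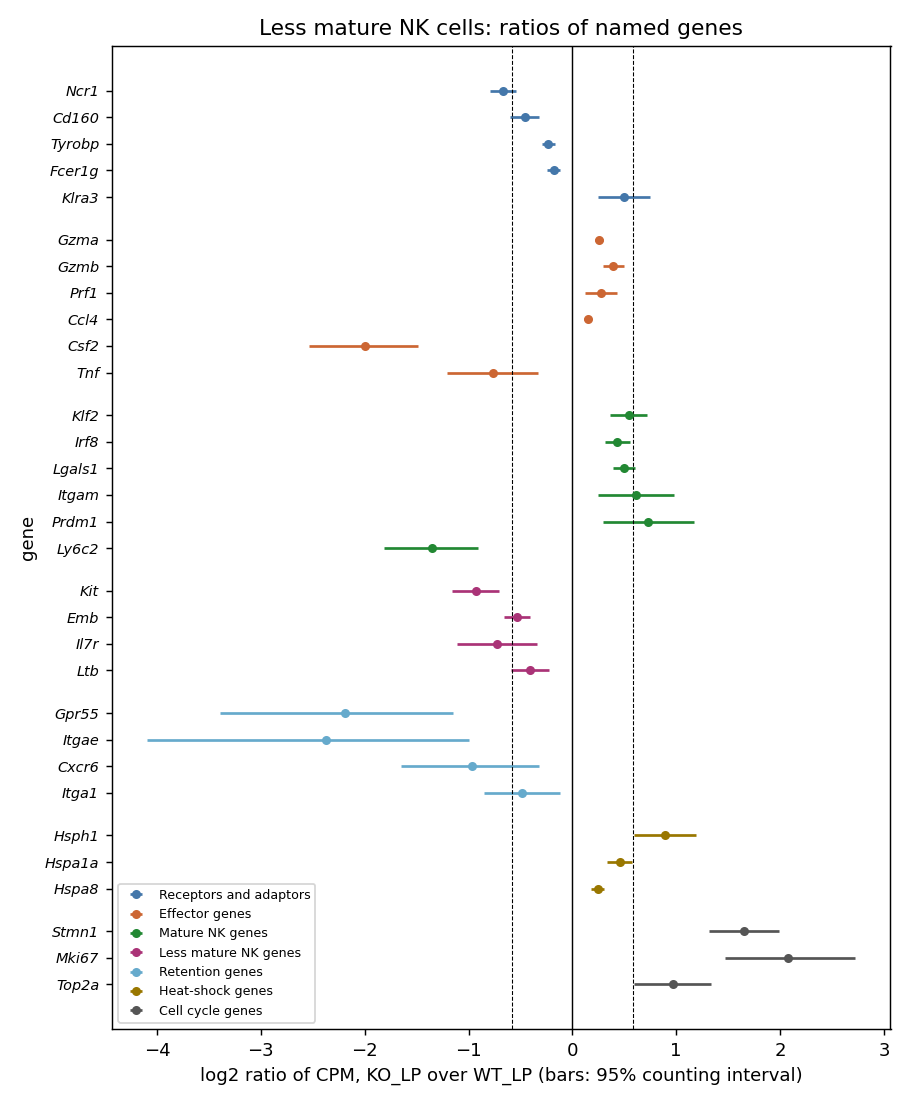
Log2 ratio of CPM in KO_LP over WT_LP (horizontal axis) for named genes of the less mature NK cells (vertical axis), coloured by role, with exact 95% counting intervals and dashed lines at 1.5-fold. Csf2 (-1.99), Kit (-0.93) and Ncr1 (-0.67) lie left of 0 and Klf2 (0.54), Gzmb (0.39) and Stmn1 (1.65) right of it.

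Genes of the mature NK list were at somewhat higher levels in the members of KO_LP and several genes of immature cells at lower. Of 19 measured mature NK genes 14 were higher, and 12 intervals lay above 0 and 3 below, where 11.6% and 10.2% of all genes tested did. Measured list genes needed only 10 UMIs, so these shares are over an unlike set, here and for the lists below. Of the 16 with enough UMIs to be tested 1 was past 1.5-fold higher and 1 lower. The list's median was 0.28, beside -0.0016 over all genes tested. Klf2 stood at 179 and 261 CPM (0.54, interval 0.37 to 0.72), and Irf8, a factor needed in NK responses to virus, at 380 and 513 CPM (0.43). Lgals1, the gene of galectin 1, stood at 476 and 672 CPM (0.50) and had a UMI in 42.3% and 57.8% of thinned members. Itgam stood at 42.1 and 64.3 CPM (0.61, past 1.5-fold). Of the 5 genes lower in KO_LP, Ly6c2 was the 1 past 1.5-fold, at 63.8 and 24.99 CPM (-1.35), from 29 and 12 cells. Members with 1 UMI of S1pr5, Cma1 or Serpinb9b were 7.43% of WT_LP and 13.7% of KO_LP. Mature NK cells were 0.937% of kept cells in WT_LP (interval 0.692 to 1.24) and 1.62% in KO_LP (1.23 to 2.10). In members with no UMI of S1pr5, Cma1 or Serpinb9b the list's median was 0.24. Such members may still include mature cells, and what those contribute to the median was not tested. In mature NK cells the same list had a median of -0.24, and whether the groups differ was not tested.

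Of the less mature NK list, 7 of 20 genes were higher and 13 lower, with a median of -0.08. Kit held 548 UMIs in 176 cells of WT_LP and 240 in 89 cells of KO_LP, or 204 and 107 CPM (-0.93, interval -1.16 to -0.71). At equal depth 30.1% and 18.5% of members had a Kit UMI. Kit stood lower in KO_LP in each class of members, at 251 and 171 CPM with Eomes alone, 215 and 97.8 CPM with Ly49 alone and 191 and 99.4 CPM with both. In the NKp46 or NK1.1 cells it stood at 232 and 208 CPM, with an interval that spanned 0. In mature NK cells it stood at 24.9 and 55.2 CPM, also with an interval that spanned 0. In all kept cells that were not members it stood at 185 and 161 CPM (-0.20). Emb, the gene of the glycoprotein embigin, stood at 521 and 361 CPM (-0.53), and Il7r at 64.1 and 38.8 CPM (-0.72). Without the 5% deepest of all kept cells in each library, which left 333 and 265 members, the ratio of Il7r was 0.078. Its direction thus changed without them, and the cut took unequal shares of the members. Other precursor genes ran the other way, with Cd27, a costimulatory receptor, at 63.4 and 82.1 CPM and Tcf7 at 122 and 148 CPM.

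Most tissue retention genes stood lower in KO_LP and most egress genes higher, with few past 1.5-fold. Of 14 measured retention genes 3 were higher and 11 lower, with a median of -0.36, and no interval lay above 0 and 7 below (10.2% of all genes tested lay below). Of the 8 retention genes with enough UMIs to be tested 0 were past 1.5-fold, and the genes named next include some under that limit. Itgae, the CD103 chain that binds E-cadherin on epithelium, held 31 UMIs in WT_LP and 5 in KO_LP (-2.37). Gpr55, a lipid receptor of gut lymphocytes, held 49 UMIs in 30 cells and 9 in 8 cells (-2.19). Cxcr6 held 68 and 29 UMIs (-0.97), and Itga1, the CD49a chain that binds collagen, 169 and 101 (-0.48). These 4 genes were at low counts in both libraries. Without the 5% deepest cells the list's median was -0.14. Of 13 measured egress genes 11 were higher in KO_LP, with a median of 0.26 and 6 intervals above 0 (11.6% of all genes tested). Of the 9 tested 1 was past 1.5-fold higher and 1 lower. Klf2 and Ly6c2 are on this list too. Itga4 stood at 345 and 455 CPM (0.40). Itga4 had a ratio of 0.34 in the NKp46 or NK1.1 cells and 0.47 in all kept cells that were not members.

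**Figure D5:**
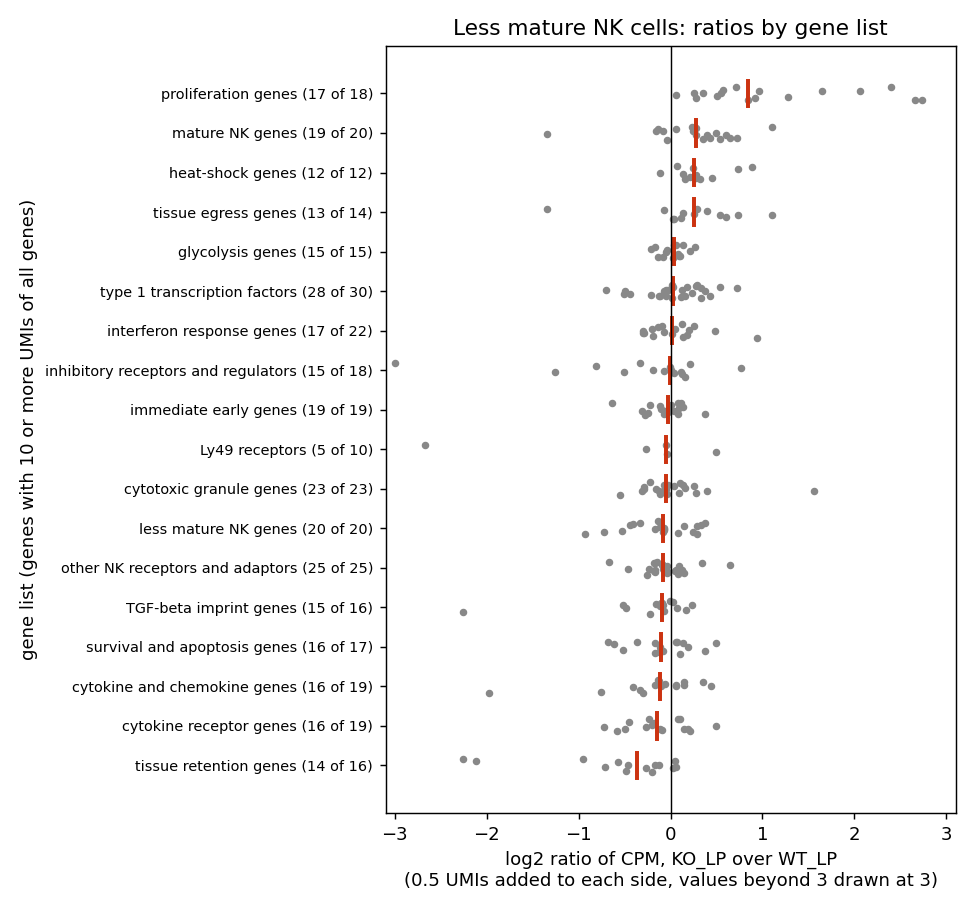
Log2 ratios of KO_LP over WT_LP in the less mature NK cells (horizontal axis) for the genes of 18 lists (vertical axis), each dot 1 gene with at least 10 UMIs and red bars for list medians. Proliferation (0.85), mature NK (0.28), heat-shock (0.26) and egress genes (0.26) have medians to the right of 0, retention genes (-0.36) to the left, and the other medians lie between -0.15 and 0.03.

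Genes lower in KO_LP stood beside lower markers of other innate lymphoid cells. Members with a UMI of Il7r, Tmem176a, Tmem176b or Il22 made up 118 of 377 in WT_LP (31.3%, interval 26.6 to 36.2) and 42 of 284 in KO_LP (14.8%, 10.9 to 19.5). The share was 6.25% and 12.5% in mature NK cells and 88.6% and 82.6% in all other kept cells. It was 59.7% and 63.0% in the NKp46 or NK1.1 cells, which were chosen to lack Tmem176a, Tmem176b and Il22. Tmem176a and Tmem176b, neighbouring and overlapping ion channel genes, stood at 55.9 and 19.2 CPM and at 71.2 and 31.2 CPM. Both were also lower in KO_LP in all kept cells that were not members, at 656 and 406 CPM (-0.69) and at 878 and 586 CPM (-0.58). The 9 ILC1 markers, all detected, summed to 836 and 588 CPM, with 1 higher in KO_LP and 8 lower. The 10 ILC3 markers summed to 89.1 and 36.1 CPM, with Il17f and Cd4 at 0 in both libraries and Il22, Il17a and Ccr6 at 0 in KO_LP.

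The ratios were recomputed in the members with none of these 4 genes, 259 in WT_LP and 242 in KO_LP. Csf2 then had a ratio of -2.14, Jaml, the gene of a junctional adhesion molecule-like protein, -1.14, Kit -1.07 and Ncr1 -0.68, as large as before or nearly so. The retention median was -0.30 and that of the mature NK genes 0.23. Gzma had 0.12 and Gzmb 0.53. Klf4, a factor that restrains proliferation, had -0.27 in place of -0.88, and Rora 0.035 in place of -0.70. The ratio of Rora was also 0.21 without the 5% deepest cells, and a single cell of WT_LP held 40 of its 234 UMIs. Leaving out cells with a UMI of the 4 genes need not remove every other innate lymphoid cell. Of the NKp46 or NK1.1 cells only 154 of 258 in WT_LP and 126 of 200 in KO_LP held such a UMI.

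Markers of several further cell types had a lower sum in KO_LP, while B cell markers summed to 140 and 146 CPM. T cell markers summed to 1000 and 872 CPM, with Cd4, Cd8a and Cd8b1 at 0 in both libraries. Cd3g stood at 51.8 and 29.5 CPM (-0.82) and Trbc2 at 305 and 239 CPM (-0.35). A UMI of Cd3e or Cd3d was present in 10.9% and 10.6% of members, nearly the same share in each library. Plasma cell markers summed to 726 and 381 CPM, and Igkc, an antibody light chain gene, stood at 443 and 196 CPM although in all kept cells that were not members it stood at 28631 and 42835 CPM. Myeloid markers summed to 481 and 389 CPM. Of the 7 mast cell markers 5 were at 0 in both libraries, and nearly all of the 205 and 108 CPM was Kit. What these other-cell transcripts contribute to the ratios above was not tested.

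Of 28 measured transcription factors of type 1 lymphocytes, 17 were higher in KO_LP and 11 lower, with a median of 0.02. Tbx21, the gene of T-bet, stood at 64.9 and 76.3 CPM with an interval that spanned 0, and Runx3, a factor that T-bet and Eomes programs use, at 429 and 435 CPM. Prdm1, which encodes Blimp1, the closest relative of Hobit, held 78 and 108 UMIs or 29.1 and 48.2 CPM (0.73). Id2, the factor common to innate lymphoid cells, stood at 843 and 957 CPM.

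Cytokine receptor genes had a median of -0.15, with 6 of 16 measured genes higher and 10 lower. Il18rap, a chain of the interleukin 18 receptor, held 188 and 222 UMIs (0.50), and Il2rg, the common gamma chain, had a ratio of -0.27. Il2rb, the chain that reads interleukin 15 in NK cells, had 0.19. Of 15 measured inhibitory receptors and regulators 7 were higher and 8 lower. Lag3 stood at 40.3 and 22.8 CPM (-0.82), Cd96, a receptor for nectins, at 99.9 and 70.1 CPM (-0.51), and Cd200r1 at 15.3 and 6.25 CPM (-1.29). Genes of the TGF-beta imprint had a median of -0.10, with 4 of 15 higher and 11 lower.

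Genes that respond to handling and stress lay in both directions. Of 12 heat-shock genes 11 were higher in KO_LP, with a median of 0.26 and 8 intervals above 0 (11.6% of all genes tested). Of the 10 tested 1 was past 1.5-fold higher (0.865% of all genes tested). Hsph1, a chaperone of the HSP110 family, stood at 57.4 and 106 CPM (0.89), from 102 and 126 cells, and Hspa1a, an inducible HSP70 gene, at 386 and 528 CPM (0.45). Heat-shock medians were higher in KO_LP also in mature NK cells (0.46) and in the NKp46 or NK1.1 cells (0.72), and Hsph1 had a ratio of 0.88 in all kept cells that were not members, so this difference was not limited to the members. Of 19 immediate early genes 8 were higher and 11 lower. Fos stood at 1018 and 653 CPM (-0.64) and Jun had a ratio of -0.22. Of the survival genes, Bcl2a1b, of the BCL2 family, stood at 216 and 135 CPM (-0.68), and Gadd45b, a stress sensor, at 985 and 686 CPM (-0.52). Gadd45b was lower in KO_LP in mature NK cells (-0.79) and in the NKp46 or NK1.1 cells (-0.86) too. Genes of the interferon response and of glycolysis had medians of 0.02 and 0.03.

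Of the 18 lists without the cell type markers, proliferation genes had the median farthest from 0, at 0.85, with all 17 measured genes higher in KO_LP. For 14 of them the interval lay above 0 (11.6% of all genes tested). Of the 7 tested 2 were past 1.5-fold higher (0.865% of all genes tested). The list's median was also above 0 in mature NK cells (1.11) and in the NKp46 or NK1.1 cells (1.02), so this was not limited to the members. Stmn1, a microtubule regulator of dividing cells, stood at 38.4 and 120 CPM (1.65), and Top2a, the topoisomerase of replicating chromosomes, at 37.3 and 72.7 CPM (0.96). Mki67, the proliferation antigen gene, held 29 UMIs in 12 cells and 102 in 17 cells (2.07). These UMIs sat in few cells. Cells with at least 5 UMIs over 7 cycle genes numbered 4 in WT_LP (1.06%, interval 0.290 to 2.69) and 10 in KO_LP (3.52%, 1.70 to 6.38), and they held 59.8% and 86.4% of all UMIs of these genes. Their median depth was 18574 and 16360 UMIs, well above that of the other members. Without them the list's median was 0.16. The replication histone genes Hist1h2ae and Hist1h2ap, with ratios of 2.15 and 1.85, turned to -0.075 and -0.18 without these cells, and a single cell of KO_LP held 139 of 260 UMIs of Hist1h2ae. Cycling cells were 0.780% and 1.45% of all other kept cells, and 1 of 48 and 3 of 56 mature NK cells.

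The remaining genes furthest from equality included gene models without a known role. Gm42031 stood at 19.0 and 76.3 CPM (2.005), from 43 and 76 cells, Gm43305 at 36.9 and 82.1 CPM (1.15), and Gm47283 at 79.0 and 154 CPM (0.96), from 132 and 155 cells. All 3 were also higher in KO_LP in all kept cells that were not members, with ratios of 1.01, 0.92 and 0.35. Jaml stood at 94.3 and 40.6 CPM (-1.22), from 105 and 49 cells, and at equal depth 16.8% and 7.78% of members had a UMI of it. In the NKp46 or NK1.1 cells Jaml stood at 83.0 and 80.4 CPM, with an interval that spanned 0, and in all kept cells that were not members at 139 and 101 CPM (-0.46). S100a4, a calcium-binding protein of motile cells, stood at 67.5 and 35.3 CPM (-0.94). It was also lower in KO_LP in mature NK cells (-1.66), the NKp46 or NK1.1 cells (-1.89) and all kept cells that were not members (-0.91).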

How the data were processed

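Gene counts are raw UMI counts per gene and barcode in the matrices the authors deposited, written by Cell Ranger 6.0.1 per the file headers. The submitters' processing notes list mm10, Cell Ranger and Seurat without the use made of each. Libraries were made with a 10x Genomics 3′ kit, per the labels' protocols. WT_LP held 5518 barcodes with 29622652 UMIs and KO_LP 3747 with 23098308. Liver and salivary gland counts were not analysed here. Any pair of libraries shared 4 to 22 barcodes.

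Member UMIs were summed per library and scaled to CPM (Python 3.11.15, numpy 2.4.6, pandas 2.3.3, scipy 1.17.1). Intervals are exact Poisson for CPM, conditional binomial for ratios and Clopper-Pearson for shares, at 95%. Called means past 1.5-fold, and no p-value was computed. List medians used genes with at least 10 UMIs and added 0.5 UMIs to each side. Between genotypes, counts of measured list genes and of their intervals used this limit too. The shares of all genes tested given beside them are thus over a different set. The rule genes and mitochondrial, ribosomal, immunoglobulin and haemoglobin genes were not ranked. Scaling factors of edgeR 4.0.16 (TMM) and DESeq2 1.42.0 (median of ratios) served as alternatives. No doublet caller was used, and leaving out the 5% deepest of all kept cells in each library stands as an alternative. It left 333 of 377 members in WT_LP and 265 of 284 in KO_LP. Named genes were the 10 in each direction with the interval bound farthest from 0 and up to 4 of each list. Other genes of the lists, and Klra5, the class, limit and group values and the gene models, were picked after their values were seen. Members and lists were chosen with earlier results of these data known. The scripts were tested on simulated data. A few genes are not reported here.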

Additional observations from a re-analysis of the deposited data

Results flagged for a closer look

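For some genes the log2 ratio of KO_LP over WT_LP ran one way in the less mature NK cells and the other way in another group of cells, with both counting intervals clear of 0. The difference between the groups was not tested, and each library is 1 sample.

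The genes below were picked for this and do not stand for their lists, and the granule list had 9 genes higher and 14 lower in the members. Some effector and receptor genes were higher in the members of KO_LP and lower in at least 1 other group. Gzma had 0.26 in members, -0.53 in mature NK cells and -0.20 in the NKp46 or NK1.1 cells without the rule genes. Gzmb had 0.39 in members, -0.38 in mature NK cells and -0.26 in the NKp46 or NK1.1 cells. Prf1 had 0.28 in members and -0.35 in mature NK cells, and Ccl4 had 0.15, -0.19 and -0.49 in the 3 groups. Lgals1 had 0.50 in members and -0.47 in mature NK cells. Klra3 had 0.50 in members and -0.67 in the NKp46 or NK1.1 cells, and Irf1, an interferon-induced factor, 0.25 and -0.32.

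Other genes ran the opposite way. Emb had -0.53 in members, 1.19 in mature NK cells and 0.42 in the NKp46 or NK1.1 cells. Il7r had -0.72, 2.59 and 0.26, the second from 2 UMIs in WT_LP and 17 in KO_LP. Rora had -0.70, 3.08 and 0.24, the second from 2 and 24 UMIs. The ratios of both genes in members were above 0 without the 5% deepest cells, at 0.078 for Il7r and 0.21 for Rora, and that of Rora was 0.035 without innate lymphoid genes. Against the NKp46 or NK1.1 cells, Jun had -0.22 in members and 0.15, Tcrg-C1, a constant region of the gamma T cell receptor, -1.14 and 0.72, and H2-Aa, an MHC class II chain, -0.59 and 0.68.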

How the results depend on the processing

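No paired analysis was possible because each genotype has 1 library, and for the same reason no library could be left out. Of 18 settings, 15 were planned and 3 were chosen after seeing the data. The share of members was higher in KO_LP, by 0.277 to 1.38 points, under each setting for which it was computed, which leaves out the subsets by heat-shock RNA, cycling or innate lymphoid genes. It was 6.25% in WT_LP and 7.24% in KO_LP with at least 3 rule UMIs, 5.84% and 6.77% with no Cd3e, Cd3d or Cd3g UMI, 5.81% and 6.81% after thinning, 4.86% and 5.88% with Eomes required, 7.09% in KO_LP with no S1pr5, Cma1 or Serpinb9b UMI, and 6.15% in WT_LP without Il7r.

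Most counts of genes past 1.5-fold were larger where fewer UMIs were left or more genes were tested. Higher in KO_LP were 36 genes with at least 3 rule UMIs, 36 with no mature UMI, 42 with Eomes, 37 without innate lymphoid genes, 129 after thinning, 67 with little heat-shock RNA, 54 with a reduced denominator (3638 genes) and 901 with 10 UMIs and no CPM minimum (9977 genes). Lower were 128, 46, 52 and 828 under the last 4, and 18 without innate lymphoid genes. Against mature NK cells thinning gave 146 higher and 161 lower. Scaling by TMM gave 17 higher and 31 lower, and median-of-ratios 19 and 31.

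Some ratios changed sign. Without the 5% deepest cells these were Il7r (0.078), Rora (0.21) and Areg (0.65). After thinning they were Hist1h2ae (-0.022), Hist1h2ap (-0.19) and Ccna2 (-0.67). In members without Il7r they were Arg1 (1.07) and H2-Aa (0.29). In members with little heat-shock RNA they were Hist1h2ae (-0.92), Hist1h2ap (-0.17), Hist1h1b (-0.93), Top2a (-0.12), Pclaf (-0.88) and Mki67 (-0.035). Without cycling members they were Hist1h2ae (-0.075), Hist1h2ap (-0.18) and Pclaf (-0.16). Without innate lymphoid genes they were Rora (0.035), Areg (0.085) and H2-Aa (0.34). Where no UMI number or gene number is given, the cause was not tested. Csf2, Kit and Ncr1 kept a ratio below 0 under each setting run. Pdcd1, Hs3st1 and Il22, listed at 0 in KO_LP, have no ratio and were not followed.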
